A study of Mus musculus with 12 samples.

Results

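The 10 genes described here encode parts of the contractile apparatus of smooth muscle cells and myofibroblasts: Acta2, Tagln, Cnn1, Myl9, Actg2, Myh11, Tpm2, Lmod1, Mylk and Smtn. They were chosen by name and matched by mouse gene symbol among the 55401 genes of the deposited table, and all 10 were found and passed the filter on low values. The samples were dermis of C57BL/6 mice aged 6 weeks, either wild type (WT) or Cthrc1-/-, from an experiment with paired wounds of equal size, taken at day 0 and day 7. Cthrc1 encodes a secreted glycoprotein, named for its collagen triple helix repeat, that is expressed during tissue repair. Each of the 4 groups (WT day 0, Cthrc1-/- day 0, WT day 7, Cthrc1-/- day 7) held 3 samples, described as biological replicates. No treatment besides wounding is labelled. How the Cthrc1-/- allele was made, whether littermates were used and whether the day 0 dermis came from unwounded skin are not given in the sources used here.

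Smooth muscle contracts when calcium and calmodulin activate a kinase that phosphorylates the light chain of smooth muscle myosin, which then pulls on filaments of smooth muscle actin. Skin holds such cells in the walls of its blood vessels and in the arrector pili muscles of its hair follicles. In healing wounds, fibroblasts can become myofibroblasts, which build stress fibres with Acta2 and Tagln and draw the wound edges together, but which are not known for high levels of Myh11, Lmod1 or other late smooth muscle genes. Many contractile genes are controlled by serum response factor (Srf) and its cofactors, which bind a DNA motif called the CArG box.

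Promoter sequences of 7 of the 10 genes were matched in a RefSeq table (assembly GRCm38.p6), all except Tagln, Actg2 and Myh11. The CArG box was searched on both strands of the 250 bases before each start. An exact box was present in 1.47% of 32841 mouse promoters of this length, and a box with at most 1 other letter in its middle in 8.59%. Of the 7 matched genes, Myl9 held 1 exact box and 1 with another letter, Acta2 held 2 with another letter, and Cnn1, Tpm2, Lmod1, Mylk and Smtn held none in this window. The sites of both genes are printed 5′ to 3′ on the gene's strand because they are the stretches that match the motif; the box is in capitals. The Acta2 sites begin 84 and 34 bases before the RefSeq start, inside the first exon of the longer Acta2 transcript that GENCODE M21 starts 217 bases farther upstream. The Myl9 boxes begin 161 and 99 bases before its RefSeq start. For Tpm2 the first GENCODE M21 start is 211 bases upstream of the RefSeq start, so most of its window lies inside the annotated gene. GENCODE M21 also starts transcripts of Mylk and Smtn 39740 and 1320 bases upstream of their RefSeq starts. The bases before those farther starts were not searched for Mylk and Smtn, and only in part for Acta2 and Tpm2.
Acta2, chr19:34255438-34255467, minus strand: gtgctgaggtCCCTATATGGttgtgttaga
Acta2, chr19:34255388-34255417, minus strand: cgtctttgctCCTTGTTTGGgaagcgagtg
Myl9, chr2:156775214-156775407, plus strand: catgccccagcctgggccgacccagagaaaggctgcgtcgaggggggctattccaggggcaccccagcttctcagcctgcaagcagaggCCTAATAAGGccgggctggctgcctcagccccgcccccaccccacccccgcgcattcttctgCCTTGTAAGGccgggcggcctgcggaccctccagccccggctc

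Total counts per sample ran from 48329668 to 76938132. Levels are given as FPKM, fragments per kilobase of transcript scaled to the mapped fragments of the library. The deleted gene, Cthrc1, reached at most 0.151 FPKM in any Cthrc1-/- sample, while the lowest WT value was 21.1 FPKM at day 0 and 74.0 FPKM at day 7. Markers of dermal fibroblasts were present in every sample, with sums over 8 genes of 185 to 1343 FPKM. Keratins and other genes of the epidermis summed to 2330 to 10569 FPKM, so the tissue labelled dermis also held RNA of keratinocytes. The size of both sums depends on the genes listed: Col1a1, which is in neither, averaged 2581 FPKM in WT day 0. Several libraries stood apart from their group in such sums. Cthrc1-/- day 0 replicate 3 had the lowest sums for dermal fibroblasts, pericytes, endothelial cells and macrophages, WT day 7 replicate 1 had the lowest epidermal sum, and WT day 7 replicate 2 the highest skeletal muscle sum. Within Cthrc1-/- day 0, replicate 1 had a hair follicle sum of 220 FPKM, far less than replicates 2 and 3. Counts of all genes called are given here once for both scalings, since scaling to total counts moved the median log2 change of all genes from -0.00 to 0.20 between days in WT and from -0.01 to 0.16 between days in Cthrc1-/-. In the WT time comparison the calls divided into 864 upward and 1016 downward, against 1669 and 543 with total counts. The same split in Cthrc1-/- was 123 and 86 against 649 and 98, and between genotypes on day 0 it was 503 and 324 against 523 and 209.

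In WT dermis at day 0, levels per length spanned a wide range from the actin to the leiomodin gene. Acta2 (ENSMUSG00000035783, chr19:34241090-34255590 in GRCm38), smooth muscle alpha-actin, had the highest mean, 140 ± 6.52 FPKM (SD, n = 3). Myl9 (ENSMUSG00000067818, chr2:156775420-156781658), the regulatory light chain of smooth muscle myosin, was at 83.4 ± 29.9, and Tagln (ENSMUSG00000032085, chr9:45929619-45936058), the actin-binding protein transgelin or SM22-alpha, at 74.2 ± 4.81 FPKM. The ranges of Myl9 and Tagln overlapped. Tpm2 (ENSMUSG00000028464, chr4:43514711-43523765), a tropomyosin that lies along the actin filament and is also made by skeletal muscle, followed at 54.3 ± 9.31 FPKM. Myh11 (ENSMUSG00000018830, chr16:14194535-14291372), the myosin heavy chain restricted to smooth muscle, was at 24.1 ± 1.74 FPKM. Smtn (ENSMUSG00000020439, chr11:3517523-3540612), smoothelin, was at 20.6 ± 0.957 and Actg2 (ENSMUSG00000059430, chr6:83512905-83536265), smooth muscle gamma-actin, at 17.5 ± 1.88 FPKM. Cnn1 (ENSMUSG00000001349, chr9:22099216-22109630), calponin, an actin-binding inhibitor of the myosin ATPase, and Mylk (ENSMUSG00000022836, chr16:34745210-35002420), the myosin light chain kinase, had overlapping ranges around 10.2 ± 0.790 and 10.1 ± 1.20 FPKM. Lmod1 (ENSMUSG00000048096, chr1:135324807-135368065), a leiomodin that starts new actin filaments, was lowest at 5.16 ± 0.605 FPKM. Besides those 2 pairs, no neighbours in this order overlapped in WT day 0. Tagln, Lmod1, Mylk and Smtn overlap genes on the opposite strand, and whether the counting used strand is not given in the sources used here.

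**Figure D1:**
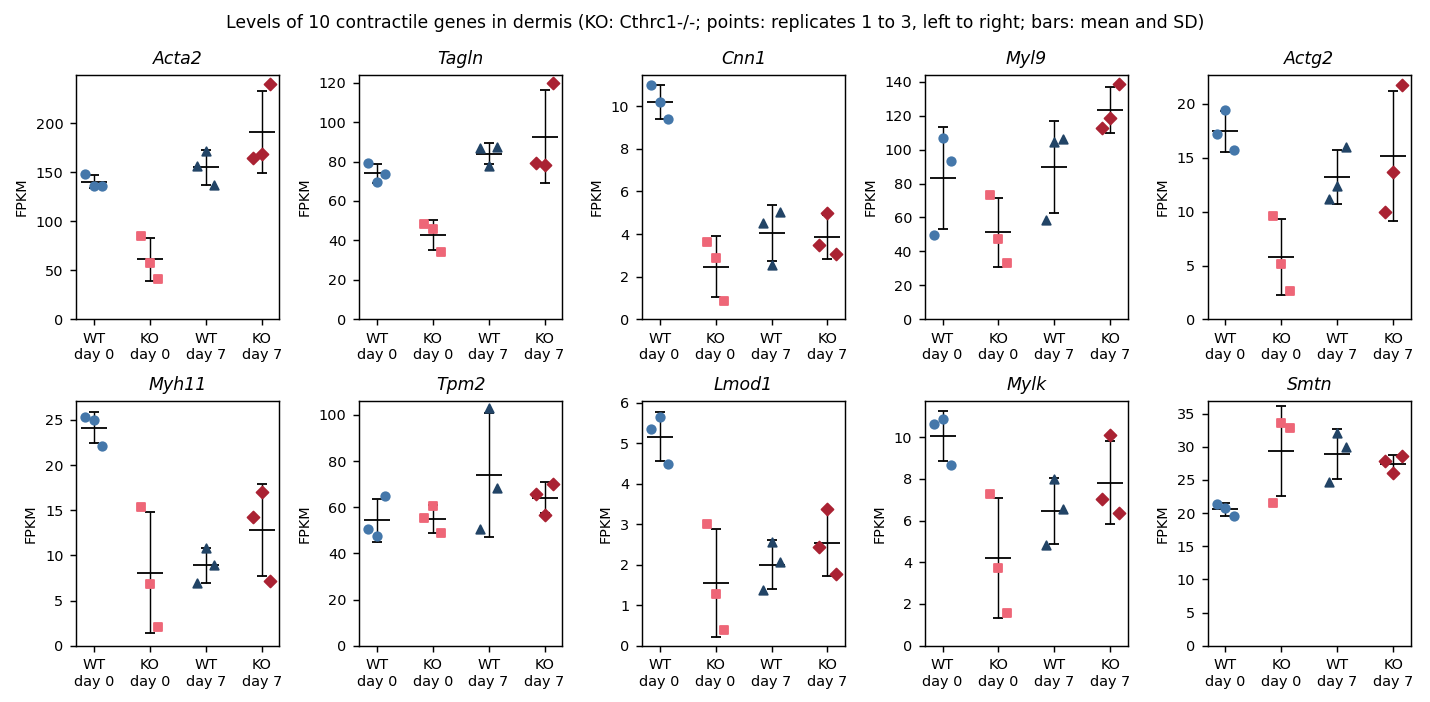
Level of each of the 10 genes in FPKM (vertical axes, linear from 0) in the 4 groups, with 1 point per sample and the mean and SD as bars. In 8 of the 10 genes Cthrc1-/- day 0 replicate 1 is the highest and replicate 3 the lowest of that group.

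At day 0 the actin filament genes Acta2, Tagln and Cnn1 were lower in Cthrc1-/- than in WT dermis, by 2.43-fold, 1.85-fold and 4.33-fold. No gene of the 10 was called higher. These 3 calls of 10 stood against 2.26% of the 14313 genes tested that were called lower and 5.78% called in either direction (edgeR quasi-likelihood test, Benjamini-Hochberg adjusted p under 0.05 over all genes tested). The median log2 difference of the 10 genes was -1.31, against -0.05 over all genes tested. In 7 of the 10 genes every Cthrc1-/- sample lay below every WT sample (19.8% of all genes tested), and in 1, Smtn, every Cthrc1-/- sample lay above (21.5%). In bulk tissue, fewer cells of a type and less RNA per cell cannot be told apart.

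Acta2 was at 148, 137 and 137 FPKM in WT day 0 replicates 1 to 3, and at 85.2, 57.1 and 41.4 FPKM in Cthrc1-/- day 0. The groups did not overlap, and the Cthrc1-/- samples spread over a 2.06-fold range where the WT samples spread over 1.08-fold. The log2 difference was -1.28 (SE 0.27, edgeR adjusted p = 0.0358). Tagln was at 79.2, 69.7 and 73.6 FPKM in WT and at 48.2, 46.01 and 34.1 FPKM in Cthrc1-/-. Again no Cthrc1-/- sample reached the lowest WT sample, and the log2 difference was -0.89 (SE 0.21, edgeR adjusted p = 0.0419). Cnn1 had the largest difference of the 10 genes in this comparison, with 10.97, 10.2 and 9.39 FPKM in WT against 3.64, 2.87 and 0.872 FPKM in Cthrc1-/- (log2 difference -2.12, SE 0.49, edgeR adjusted p = 0.0411). The lowest Cnn1 value still rested on 129 counts.

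The other actin filament genes did not behave alike. Actg2 was at 17.2, 19.4 and 15.7 FPKM in WT day 0 and at 9.62, 5.15 and 2.62 FPKM in Cthrc1-/- day 0, without overlap, but its log2 difference of -1.66 (SE 0.44) missed the threshold (edgeR adjusted p = 0.0541). Lmod1 was at 5.35, 5.65 and 4.48 FPKM in WT against 3.00, 1.28 and 0.387 FPKM in Cthrc1-/- (log2 difference -1.79, SE 0.60, edgeR adjusted p = 0.0928). The Cthrc1-/- values of Lmod1 spread over a 7.76-fold range, the widest of the 10 genes within any group. Tpm2 was at 50.4, 47.5 and 64.9 FPKM in WT and at 55.5, 60.5 and 48.6 FPKM in Cthrc1-/-, overlapping ranges, with a log2 difference of -0.09 (SE 0.23) that turned to 0.01 with total-count scaling. Smtn went the other way, with 21.4, 20.8 and 19.6 FPKM in WT against 21.5, 33.6 and 32.8 FPKM in Cthrc1-/- (log2 difference 0.40, SE 0.15, edgeR adjusted p = 0.114). Its lowest Cthrc1-/- sample, replicate 1, was level with its highest WT sample.

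Among the motor genes, Myh11 was at 25.3, 24.9 and 22.1 FPKM in WT day 0 and at 15.4, 6.84 and 2.10 FPKM in Cthrc1-/- day 0. The 3 Cthrc1-/- samples differed 7.31-fold among themselves, and the log2 difference of -1.64 (SE 0.59) did not pass (edgeR adjusted p = 0.108). Mylk was at 10.6, 10.9 and 8.67 FPKM in WT against 7.26, 3.73 and 1.57 FPKM in Cthrc1-/- (log2 difference -1.33, SE 0.46, edgeR adjusted p = 0.101). Myl9 overlapped between genotypes: WT replicate 1 was at 49.8 FPKM and replicates 2 and 3 at 107 and 93.4 FPKM, against 73.2, 47.3 and 33.5 FPKM in Cthrc1-/- (log2 difference -0.79, SE 0.35, edgeR adjusted p = 0.173). At an unadjusted p under 0.05, 9 of the 10 genes differed, all except Tpm2, against 28.4% of all genes tested.

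The 3 calls depended on single libraries. No gene of the 10 was called without WT day 0 replicate 1, 2 or 3 in turn (48, 18 and 18 of all genes tested) or without Cthrc1-/- day 0 replicate 2 (154 genes). Without Cthrc1-/- day 0 replicate 3, 1 was called, Cnn1 (238 genes), and without Cthrc1-/- day 0 replicate 1, 8 were called, in a fit that called 15% of all genes tested. A fit to the 6 day 0 samples alone called none of the 10 and 19 genes in all. DESeq2, which called 19.5% of all genes tested, called 8 of the 10, all in the direction of their edgeR estimates: these 3, Actg2, Lmod1, Myh11 and Mylk lower, and Smtn higher.

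**Figure D2:**
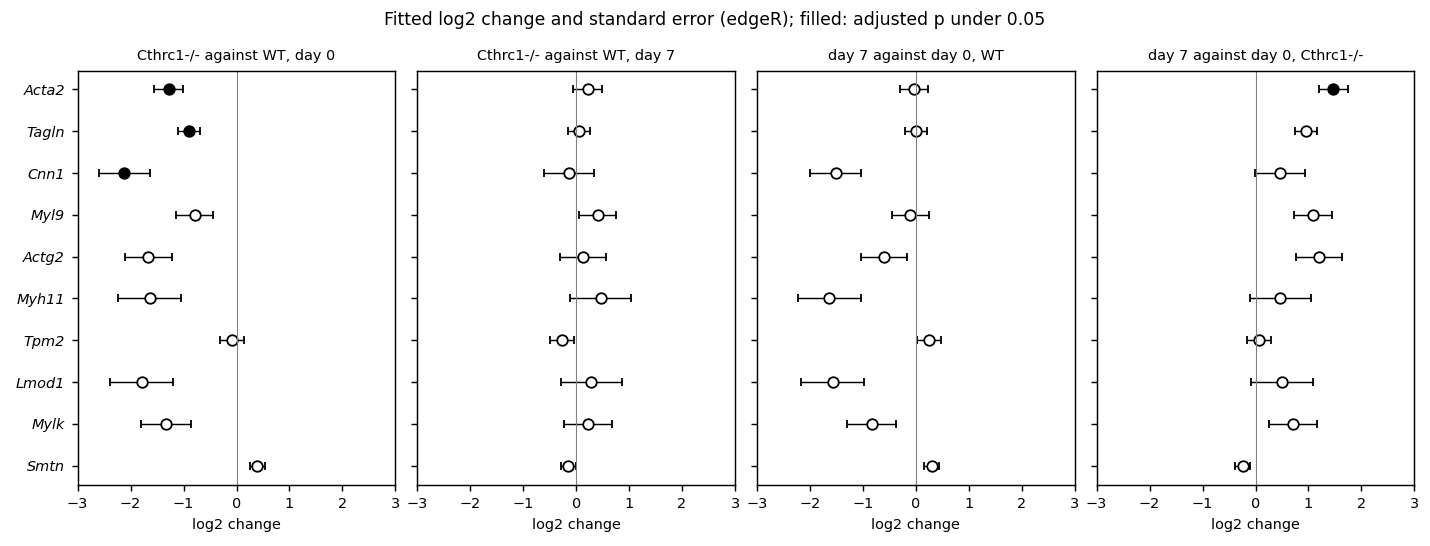
Fitted log2 change of each gene (points) with its standard error (bars) in the 4 comparisons of 2 groups, from the edgeR fit to all 12 samples. Filled points mark the 4 changes with an adjusted p under 0.05: Acta2, Tagln and Cnn1 between genotypes at day 0 and Acta2 between days in Cthrc1-/-.

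The Cthrc1-/- day 0 samples also differed among themselves in markers of other cells, and replicate 3, the lowest of its group in 9 of the 10 contractile genes, stood at an end of each list. Summed over 8 dermal fibroblast genes, they were at 859, 488 and 185 FPKM in replicates 1 to 3, against 1238 to 1296 FPKM in WT day 0. The sum over 10 genes of pericytes, the mural cells of small vessels, was 341, 224 and 95.4 FPKM against 304 to 338 FPKM, and most of it was a single gene, Ndufa4l2, at 243, 132 and 46.8 FPKM against 197 to 236 FPKM. Another gene of the list, the receptor Notch3, was at 11.2, 13.9 and 15.5 FPKM against 13.3 to 13.4 FPKM, highest in replicate 3. No gene of either list was called between genotypes at day 0. Endothelial markers (9 genes, none called) summed to 70.5, 77.7 and 28.6 FPKM against 93.2 to 101 FPKM. Genes of the hair follicle's inner root sheath and shaft went the opposite way: all 10 were called higher, and their sum was 220, 5137 and 12248 FPKM against 3.12 to 6.10 FPKM in WT day 0. In WT day 0 replicate 1, Krt25, Krt72, Krt73, Krt33a and Krt86 of that list were at 0. Skeletal muscle genes (13 of 15 tested, none called) summed to 363, 249 and 92.3 FPKM against 411 to 934 FPKM. The part of these differences in those of the contractile genes was not tested.

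**Figure D3:**
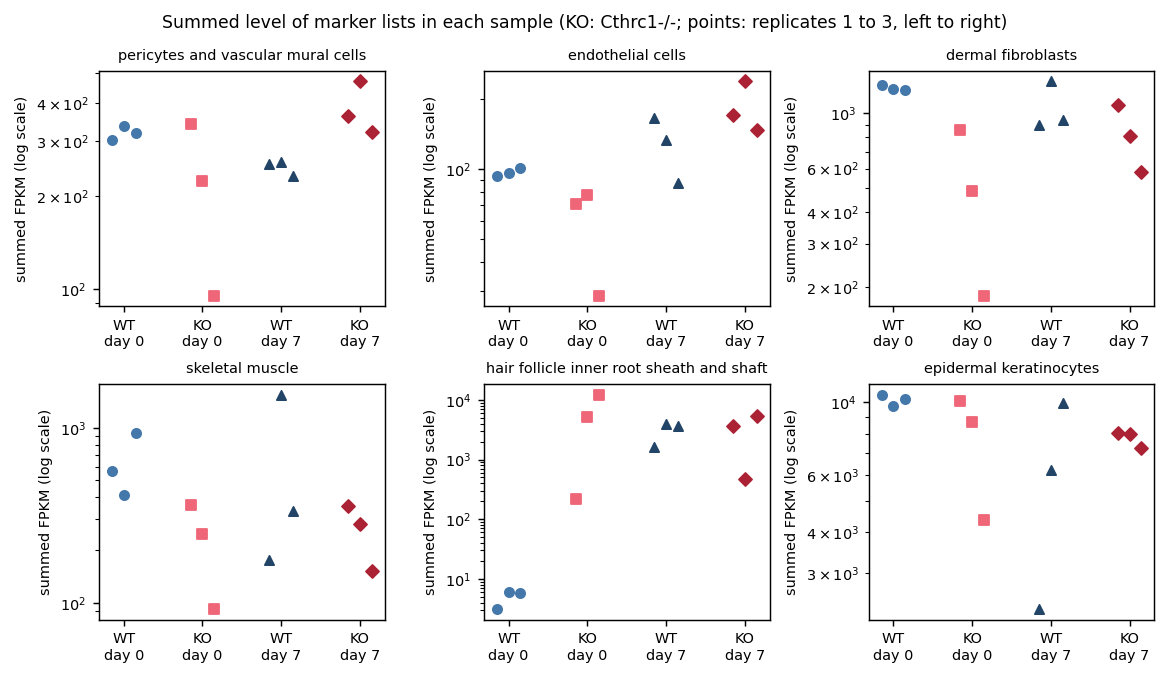
Summed FPKM (vertical axes, log scale) of 6 marker lists in each of the 12 samples, with 1 point per sample. Cthrc1-/- day 0 replicate 3 has the lowest sum for pericytes, endothelial cells, dermal fibroblasts and skeletal muscle, and the highest for the hair follicle, 12248 FPKM.

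Between day 0 and day 7 in WT, the 10 genes split. Acta2, Tagln, Myl9 and Tpm2 had overlapping ranges, while every day 7 sample lay below every day 0 sample for Cnn1, Myh11, Lmod1 and Mylk, 4 of 10 genes (14.1% of all genes tested), and above for Smtn (29.8%). None of the 10 passed the test in the edgeR fit, against 13.1% of all genes tested, and 3 had an unadjusted p under 0.05, against 32.5%. DESeq2 called 3 (24.8% of all genes tested), a fit to the 6 WT samples alone called 5 (14.7%), and limma on log2(FPKM + 1) called 1 (13.4%). The median log2 change of the 10 genes was -0.35, against -0.00 over all genes tested.

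Myh11 was at 6.97, 10.8 and 8.95 FPKM in WT day 7 replicates 1 to 3, all less than its lowest day 0 value of 22.1 FPKM. Its log2 change was -1.63 (SE 0.59, edgeR adjusted p = 0.0884). Cnn1 was at 4.51, 2.54 and 5.04 FPKM at day 7 against 9.39 to 10.97 FPKM at day 0 (log2 change -1.52, SE 0.48, edgeR adjusted p = 0.0616). Lmod1 was at 1.37, 2.56 and 2.07 FPKM against 4.48 to 5.65 FPKM (log2 change -1.57, SE 0.59, edgeR adjusted p = 0.0994). The 3 genes that DESeq2 called lower were Cnn1, Myh11 and Lmod1, with adjusted p = 0.0130, 0.0257 and 0.0369. Mylk was at 4.81, 7.98 and 6.57 FPKM at day 7, closer to its day 0 range of 8.67 to 10.9 FPKM (log2 change -0.84, SE 0.46, edgeR adjusted p = 0.235).

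Acta2 was at 157, 172 and 137 FPKM in WT day 7, around its day 0 values of 137 to 148 FPKM. Its log2 change was -0.03 (SE 0.27, edgeR adjusted p = 0.948) and 0.16 with total-count scaling, so the sign depended on the scaling. Tagln, at 86.7, 77.9 and 87.5 FPKM, and Myl9, at 58.6, 105 and 106 FPKM, also had changes within 1 SE of 0, -0.00 and -0.10 on the log2 scale, which turned to 0.19 and 0.12 with total counts. Actg2 was at 11.2, 12.4 and 16.0 FPKM, its highest day 7 sample reaching into the day 0 range of 15.7 to 19.4 FPKM (log2 change -0.60, SE 0.43, edgeR adjusted p = 0.364). Smtn was at 24.8, 32.1 and 30.0 FPKM against 19.6 to 21.4 FPKM (log2 change 0.30, SE 0.15, edgeR adjusted p = 0.184).

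Tpm2 had the same order as the skeletal muscle markers within each WT group. It was at 50.6, 103 and 68.5 FPKM in WT day 7 replicates 1 to 3, where the skeletal muscle genes summed to 176, 1546 and 334 FPKM. Replicate 2 was the highest of all 12 samples in both. In WT day 0, where Tpm2 was at 50.4, 47.5 and 64.9 FPKM, those genes summed to 570, 411 and 934 FPKM. The orders differed in both Cthrc1-/- groups. At day 0 Tpm2 was at 55.5, 60.5 and 48.6 FPKM there, and the skeletal muscle genes at 363, 249 and 92.3 FPKM. At day 7 Tpm2 was at 65.8, 56.7 and 70.0 FPKM, and the skeletal muscle genes at 359, 283 and 152 FPKM. Without WT day 7 replicate 2 the log2 change of Tpm2 between days in WT was -0.05, against 0.25 (SE 0.23, edgeR adjusted p = 0.489) with it. The part of skeletal muscle in the Tpm2 level was not tested.

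In Cthrc1-/- dermis Acta2 rose 2.76-fold from day 0 to day 7. It was at 165, 169 and 240 FPKM at day 7 against 85.2, 57.1 and 41.4 FPKM at day 0, without overlap (log2 change 1.47, SE 0.28, edgeR adjusted p = 0.0394). It was the only call among the 10 genes, against 0.859% of all genes tested called higher and 1.46% in either direction. The call was lost without Cthrc1-/- day 0 replicate 2 and without each of the 3 Cthrc1-/- day 7 samples in turn, with an adjusted p of up to 0.134, and in a fit to the 6 Cthrc1-/- samples alone (adjusted p = 0.0995). The day 0 samples of this comparison are those of the comparison between genotypes at day 0, so the results of both share them.

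Acta2, Tagln, Myl9 and Actg2 were higher in every Cthrc1-/- day 7 sample than in every Cthrc1-/- day 0 sample (4 of 10, against 21.5% of all genes tested). Tagln was at 79.4, 78.3 and 120 FPKM at day 7 against 34.1 to 48.2 FPKM at day 0 (log2 change 0.94, SE 0.21), and just missed the threshold (edgeR adjusted p = 0.0565; DESeq2 adjusted p = 0.000871). Myl9 was at 113, 119 and 139 FPKM against 33.5 to 73.2 FPKM (log2 change 1.09, SE 0.35, edgeR adjusted p = 0.142). DESeq2, which called 9.84% of all genes tested in this comparison, called Myl9 too (adjusted p = 0.0349). Actg2 was at 9.93, 13.7 and 21.8 FPKM against 2.62 to 9.62 FPKM (log2 change 1.19, SE 0.44, edgeR adjusted p = 0.183). In each of these 4 genes Cthrc1-/- day 7 replicate 3 was the highest of its group.

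The ranges of the other 6 genes overlapped between days in Cthrc1-/-. Myh11 was at 14.2, 17.0 and 7.19 FPKM at day 7 (log2 change 0.47, SE 0.58, edgeR adjusted p = 0.717), and its lowest value there, in replicate 3, came from the sample with the highest Acta2. Lmod1 was at 2.44, 3.38 and 1.77 FPKM, Mylk at 7.02, 10.1 and 6.35 FPKM and Cnn1 at 3.51, 5.00 and 3.05 FPKM, each lowest in replicate 3 as well. Their log2 changes were 0.51, 0.71 and 0.46, with SEs of 0.58, 0.46 and 0.47. Tpm2 was at 65.8, 56.7 and 70.0 FPKM and Smtn at 27.9, 25.98 and 28.6 FPKM, with log2 changes of 0.06 and -0.24. The median log2 change of the 10 genes was 0.61, against -0.01 over all genes tested.

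At day 7 none of the 10 genes was called between genotypes, in a comparison in which 0.021% of all genes tested were called, and none had an unadjusted p under 0.05, against 5.46% of all genes tested. DESeq2 called none of them either. The median log2 difference was 0.17, against -0.01 over all genes tested, and the single differences ran from -0.27 (Tpm2, SE 0.23) to 0.46 (Myh11, SE 0.58). Myl9 was the only gene of the 10 without overlap, higher in every Cthrc1-/- sample (113 to 139 FPKM) than in every WT sample (58.6 to 106 FPKM), which held for 6.46% of all genes tested. Its log2 difference was 0.40 (SE 0.35, edgeR adjusted p = 0.980).

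The interaction of genotype and day, which compares the WT and Cthrc1-/- time courses, was called for none of the 10 genes and for 0.014% of all genes tested. An unadjusted p under 0.05 was found for 9 of the 10, all except Tpm2, against 15.1% of all genes tested. The same 9 genes passed that level between genotypes at day 0, in samples that the interaction shares. The estimate for Acta2 was 1.501 on the log2 scale (SE 0.38, edgeR adjusted p = 0.193), the smallest adjusted p of the 10. DESeq2 called Acta2 (adjusted p = 0.0119), in a fit that called 4.76% of all genes tested for the interaction. The largest estimates were those of Myh11, 2.10 (SE 0.82, edgeR adjusted p = 0.281), and Lmod1, 2.08 (SE 0.83, edgeR adjusted p = 0.285). Smtn had an estimate of -0.54 (SE 0.21, edgeR adjusted p = 0.272). The median of the 10 was 1.52, against 0.02 over all genes tested.

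**Figure D4:**
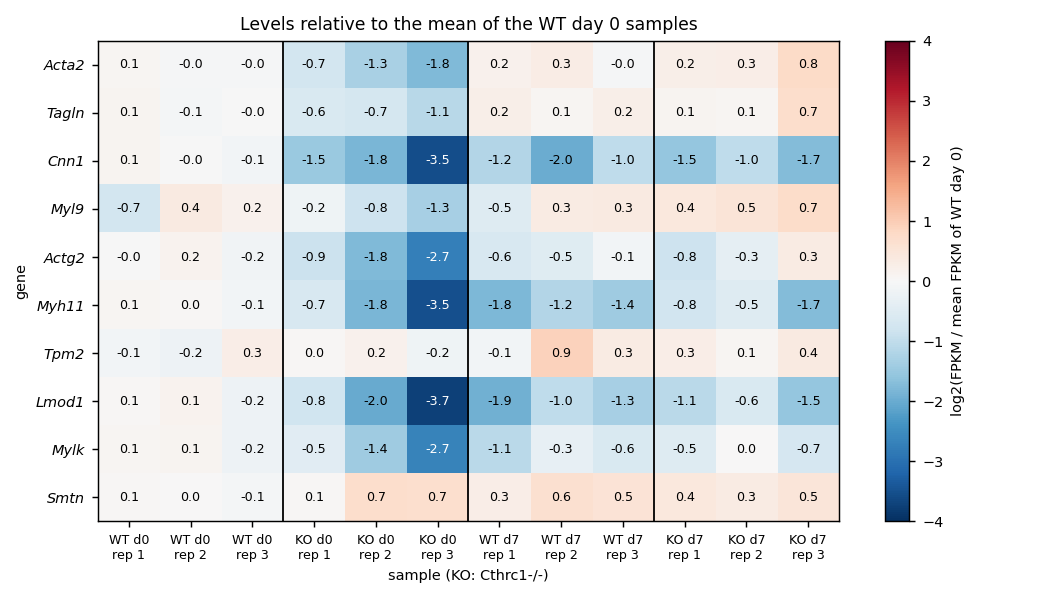
Level of each gene (rows) in each sample (columns) as the log2 ratio of its FPKM to the mean FPKM of the 3 WT day 0 samples, printed in the cells and coloured from blue (lower) to red (higher). Cnn1, Myh11 and Lmod1 are below 0 in every sample of the other 3 groups, while Acta2 and Tagln are below 0 in the Cthrc1-/- day 0 samples and near or above 0 at day 7.

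The ratio of Acta2 to Myh11, which compares the actin shared with myofibroblasts to the myosin of smooth muscle, separated the days in WT. In FPKM it was 5.84, 5.48 and 6.17 in WT day 0 and 22.5, 15.9 and 15.3 in WT day 7, with no overlap. In Cthrc1-/- day 0 it was 5.55, 8.35 and 19.7, and in Cthrc1-/- day 7 it was 11.6, 9.92 and 33.3, so the days overlapped. Of the samples with high ratios, Cthrc1-/- day 0 replicate 3 had the lowest Acta2 and the lowest Myh11 of all 12 samples. Cthrc1-/- day 7 replicate 3 had the highest Acta2 of all 12 samples. It also had the lowest Myh11 of its group, 7.19 FPKM against 14.2 and 17.0 FPKM. This ratio was chosen after the values were seen and was not tested.

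**Figure D5:**
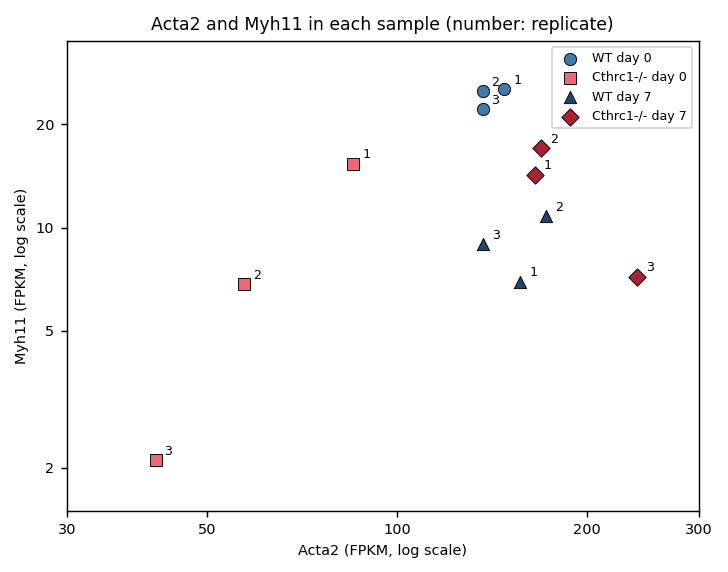
Acta2 (horizontal) against Myh11 (vertical) in each of the 12 samples, both in FPKM on log axes, with the replicate number beside each point. The WT day 0 samples lie together at the top, the Cthrc1-/- day 0 samples run down to 41.4 FPKM of Acta2 and 2.10 FPKM of Myh11, and every day 7 sample has less Myh11 than every WT day 0 sample at a similar or higher Acta2 level.

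Over the 12 samples, pairs of genes were compared on the log2 CPM scale (counts scaled to library size). In each sample both values of a pair come from the same library. Myh11, Lmod1 and Mylk followed each other closely. Pearson's r was 0.990 for Myh11 with Lmod1, 0.978 for Lmod1 with Mylk and 0.957 for Myh11 with Mylk. Acta2 was closest to Tagln, with r = 0.961, and its r with Myh11 was 0.591. By ranks (Spearman's rho) Acta2 was at 0.797 with Tagln, 0.0979 with Myh11 and -0.182 with Smtn. The pairs among Myh11, Lmod1 and Mylk had a rho of 0.958 to 0.993. Smtn had a negative r with each of the other genes besides Tpm2, from -0.508 with Tagln to -0.755 with Myh11. Tpm2 had no r above 0.408. These values describe 12 samples in 4 groups that differ in level, and carry no test.

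By the same measure, the genes outside the 10 whose pattern was most like the mean of the 10 over the 12 samples were Pth1r, the receptor of parathyroid hormone (r = 0.978), Sgca, a sarcoglycan (r = 0.973), Mmp14, a membrane-bound matrix metalloproteinase (r = 0.969), Zfp383 (r = 0.968) and Git2 (r = 0.966). Those most like Acta2 alone were Sept4, Cacnb3, B4galt2, C1qtnf6 and Prrx2, with r from 0.943 to 0.945. By ranks the values were lower, with a rho of 0.650 (Sept4) to 0.923 (Prrx2) for these genes. For the genes most like the mean, rho was 0.832 (Mmp14) to 0.937 (Pth1r).

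Other genes of the contractile apparatus, 23 of 25 tested, were for the most part not called. At day 0 the median log2 difference between genotypes was -0.46, and 1 gene was called lower: Ppp1r12b, a targeting subunit of myosin phosphatase, at 2.85, 1.71 and 1.45 FPKM in Cthrc1-/- against 3.82 to 4.19 FPKM in WT (log2 difference -1.07, SE 0.26, edgeR adjusted p = 0.0445), a call kept only without Cthrc1-/- day 0 replicate 1. In that comparison 5.78% of all genes tested were called. Between days in WT, 3 were called higher and 1 lower, against 13.1% of all genes tested called in either direction. Pdlim7, a PDZ and LIM domain protein of actin filaments, rose by 1.35 on the log2 scale (SE 0.30), Cald1, caldesmon, by 1.05 (SE 0.23) and Cnn2, a calponin found outside muscle, by 0.59 (SE 0.16), while Ppp1r12b fell by 1.12 (SE 0.26). The calls of Pdlim7, Cald1, Cnn2 and Ppp1r12b between days in WT were each lost without each WT day 0 sample in turn. Those of Cnn2 and Ppp1r12b were also lost without WT day 7 replicate 2, and that of Ppp1r12b without WT day 7 replicate 1. In Cthrc1-/- only Cnn2 of this list was called between days, higher by 0.80 (SE 0.16, edgeR adjusted p = 0.0440). Each of the 6 fits that left out a sample lost that call. Flna, not called, had a log2 change of 0.88 (SE 0.18, edgeR adjusted p = 0.051). In that comparison 1.46% of all genes tested were called.

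Of 15 genes of cytoplasmic actin and non-muscle myosin, which every cell uses, 1 was called between genotypes at day 0: Myh10, a non-muscle myosin heavy chain, was lower (log2 difference -0.64, SE 0.16, edgeR adjusted p = 0.0460), a call that none of the 6 fits without a sample kept. Between days in WT, where 13.1% of all genes tested were called, 3 of the 15 were called higher. They were the actin-binding proteins Pfn1, by 1.62 (SE 0.37), and Cfl1, by 0.96 (SE 0.24), and the myosin heavy chain Myh9, by 0.78 (SE 0.22). Pfn1 was at 38.7, 38.2 and 92.5 FPKM in WT day 0 and at 164 to 255 FPKM in WT day 7. These calls were lost without WT day 0 replicate 1 or 2, those of Cfl1 and Myh9 also without WT day 0 replicate 3, that of Cfl1 without WT day 7 replicate 1 and that of Myh9 without WT day 7 replicate 2. None of the 15 genes was called between days in Cthrc1-/-.

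Regulators of contractile genes (18 of 20 tested) included calls in both directions. Srf, the factor that binds the CArG box, was at 22.1, 19.2 and 18.97 FPKM in WT day 0, 14.7, 15.7 and 14.7 FPKM in Cthrc1-/- day 0, 14.02, 14.9 and 14.6 FPKM in WT day 7 and 11.7, 14.2 and 12.7 FPKM in Cthrc1-/- day 7. It was lower in Cthrc1-/- at day 0 (log2 difference -0.53, SE 0.12, edgeR adjusted p = 0.0402) and fell between days in WT by 0.66 (SE 0.12, edgeR adjusted p = 0.0103). The call between days in WT was kept in all 6 fits that left out a sample, and the call at day 0 in 1 of 6, that without Cthrc1-/- day 0 replicate 1. Myocd, myocardin, the cofactor of Srf in smooth muscle, was listed at 0 to 0.147 FPKM and not tested.

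Fhl2, a LIM protein that binds Srf, ranged over 1.92 to 3.00 FPKM at day 0 in WT and over 5.15 to 9.99 FPKM in Cthrc1-/-, with no overlap. At day 7 the WT samples held 8.81 to 18.8 FPKM and the Cthrc1-/- samples 11.7 to 20.1 FPKM. It was called higher in Cthrc1-/- at day 0 (log2 difference 1.62, SE 0.33, edgeR adjusted p = 0.0329) and rose between days in WT by 2.25 (SE 0.34, edgeR adjusted p = 0.00609). The call at day 0 was kept only without Cthrc1-/- day 0 replicate 1. Csrp2, a LIM protein of smooth muscle, rose between days in WT by 1.66 (SE 0.19, edgeR adjusted p = 0.00278) and in Cthrc1-/- by 1.22 (SE 0.19, edgeR adjusted p = 0.0216). Hey2, a transcriptional repressor downstream of Notch, rose by 1.39 (SE 0.25, edgeR adjusted p = 0.00890) and 1.25 (SE 0.25, edgeR adjusted p = 0.0440). The calls of Fhl2, Csrp2 and Hey2 between days in WT were kept in all 6 fits that left out a sample. In Cthrc1-/- that of Hey2 was kept in none and that of Csrp2 in 2, those without Cthrc1-/- day 0 replicate 1 or 3. Klf4 of this list, named here after its values were seen, also fell between days in WT, by 2.31 (SE 0.43, edgeR adjusted p = 0.0106).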

How the data were processed

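Poly(A) RNA of 12 dermis samples was sequenced as paired ends from strand-marked libraries with molecular identifiers, per the labels' protocols. The submitters' processing notes name cutadapt 1.9, HISAT2 2.0.4, StringTie 1.3.4d, UMI-tools, DESeq2 and edgeR, and the build GRCm38. The authors deposited whole-number counts per gene and FPKM values per gene for each sample, per the file headers. A count of 4 was 3.16 to 4.05 times as frequent as its neighbours, and this was not explained in the sources used here. FPKM listed at a placeholder where the count is 0 was set to 0.

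Counts were tested in R 4.3.3 with edgeR 4.0.16 (TMM, quasi-likelihood, two-sided, 1 mean per group, all 12 samples in 1 fit), over the 14313 genes whose FPKM averaged 1 or more, with Benjamini-Hochberg adjustment. SE is the log2 change divided by the root of F. Alternatives used DESeq2 1.42.0, limma 3.58.1, other scalings and filters, single samples left out, and a replicate block. The script was tested on simulated data. The 10 genes and the other lists were chosen with earlier results of these data known. The 10 are named in every comparison, and up to 4 called genes with the smallest p from each other list. Likeness is Pearson's r of log2 CPM (prior count 2), for the 5 closest genes. No transcript window of 150 bases of the 10 genes was shared with another gene.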

Additional observations from a re-analysis of the deposited data

How the results depend on the processing

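Over all alternatives and named genes, 1150 of 1410 values kept their direction and their side of the threshold, 185 lost a call, 33 gained one and 42 changed sign. Of the 10 contractile genes, 3, 0, 0, 1 and 0 were called at day 0, at day 7, between days in WT, between days in Cthrc1-/- and for the difference of the day changes. DESeq2 called 8, 0, 3, 3 and 1 of them (2787, 62, 3551, 1409 and 681 of all genes, against 827, 3, 1880, 209 and 2). limma on log2(FPKM + 1) called 5, 0, 1, 2 and 0 (601, 8, 1911, 775 and 4 genes), and with a pseudocount of 0.1, 4, 0, 0, 2 and 0 (694, 5, 1998, 773 and 1 genes). Total-count scaling called 2 in Cthrc1-/- (747 genes, and 1 gene for the difference). Without a filter 0 were called at day 0 (275 genes, and 1 gene for the difference). Fits to only the groups compared called 0 at day 0 (19 genes), 5 in WT (2102 genes) and 0 in Cthrc1-/- (89 genes). Without Cthrc1-/- day 0 replicate 3 and WT day 7 replicate 1 together, chosen after seeing the data, 2, 0, 3, 2 and 0 were called (976, 5, 2754, 1651 and 9 genes). The cause of these shifts was not tested.

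With single samples left out, 0 to 8, 0 to 0, 0 to 0, 0 to 1 and 0 to 1 of the 10 were called, and 18 to 2146, 0 to 4, 527 to 2043, 5 to 522 and 0 to 242 of all genes. A left-out sample leaves 2 in its group, and the other groups then carry more of the spread.

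Changes near 0 turned sign. Between days in WT, Acta2 was at 0.00771 with DESeq2 or its size factors, 0.14 with limma at either pseudocount and 0.16 with total counts. Tagln was at 0.0420 in both DESeq2 scalings, 0.18 with limma, 0.19 with total counts and 0.0246 without a filter, and Myl9 at 0.13, 0.13, 0.12 and 0.12 with limma, total counts and both libraries left out. Tpm2 at day 0 was at 0.0234 and 0.0239 with limma, 0.0147 with total counts and 0.0718 without both libraries, which also gave 0.00962 for Cnn1 at day 7 and -0.00835 and -0.0629 for Myh11 and Tpm2 between days in Cthrc1-/-. With single samples left out, Tpm2 ran from -0.18 to 0.0723 at day 0, -0.44 to 0.0271 at day 7, -0.0492 to 0.52 in WT, -0.0590 to 0.16 in Cthrc1-/- and -0.41 to 0.11 for the difference. At day 7 Actg2 ran from -0.21 to 0.35, Cnn1 from -0.40 to 0.0201, Mylk from -0.0208 to 0.38 and Tagln from -0.16 to 0.15. In WT Acta2 ran from -0.0899 to 0.0924, Myl9 from -0.37 to 0.18 and Tagln from -0.0477 to 0.0691.

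The labels give no animal or batch behind a replicate number, and the pairing was not taken as given: of 18 pairs with the same number, 5 had deviations correlated over 0.1 (r from -0.232 to 0.426). As a hint of shared numbers, 20 of 36 best matches had the same number, and all 3 pairs of Cthrc1-/- day 0 with WT day 7, groups not compared here, were over 0.1. With the number as a replicate block, 2, 0, 0, 1 and 0 of the 10 genes were called, and 883, 2, 1467, 291 and 1 of all genes.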

Other observations

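Of 13 granulation tissue and matrix genes tested, 4 were called higher between days in WT. In that comparison 864 of the 14313 genes tested were called higher, and 13.1% were called in either direction. Col12a1, a collagen that coats fibrils, was at 3.49 to 7.40 FPKM at day 0 and 31.5 to 56.0 FPKM at day 7 (log2 change 2.72, SE 0.49, edgeR adjusted p = 0.00928), a call kept in all 6 fits that left out a sample. The matrix glycoprotein Tnc rose by 3.98 (SE 0.83), Lrrc15, a membrane protein of activated fibroblasts, by 3.24 (SE 0.73) and Spp1, osteopontin, by 2.96 (SE 0.85). Of the 6 fits, Tnc and Lrrc15 were called in 3 and Spp1 in 1. WT day 7 replicate 1 held 395 FPKM of Tnc and 156 FPKM of Spp1, against 57.8 and 80.6 FPKM of Tnc and 10.4 and 39.8 FPKM of Spp1 in the other 2 WT day 7 samples. In Cthrc1-/- Col12a1 rose by 2.57 (SE 0.48, edgeR adjusted p = 0.0394, called in 1 of 6 such fits). At day 0 Col1a2, a chain of type I collagen, was at 445, 230 and 53.7 FPKM in Cthrc1-/- against 1075 to 1490 FPKM in WT (log2 difference -2.43, SE 0.61, edgeR adjusted p = 0.0480, called in 2 of 6).

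Of 9 endothelial genes, 2 were called higher between days in Cthrc1-/-, in a comparison in which 1.46% of all genes tested were called. They were Tie1, a receptor tyrosine kinase, by 1.81 (SE 0.36), and Egfl7, a secreted vascular factor, by 1.58 (SE 0.32). Both had an edgeR adjusted p = 0.0440, and the calls were kept in 1 and 0 of the 6 fits. The median log2 change of the 9 genes was 1.58, against -0.01 over all genes tested. Of 8 epidermal genes 1 was called, the basal keratin gene Krt15, which fell between days in WT by 3.19 (SE 0.68, kept in 3 of 6). In that comparison 13.1% of all genes tested were called. Among the hair follicle genes the 4 with the smallest p at day 0 were Krt71, Krt73, Krt27 and Krt25. Their log2 differences were 10.60 to 11.48, and these calls were lost without each WT day 0 sample in turn. Between days in WT, 8 of the 10 hair follicle genes were called higher. None of the 8 macrophage genes and none of the 2 of 6 cardiac genes tested was called in any comparison.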
